A study of Mus musculus with 8 samples.

Results

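The genes described here encode 8 peptide hormones of the gut and 2 granins, proteins of the secretory granule: Pyy, Gcg, Nts, Ghrl, Cck, Gip, Sct, Sst, Chga and Chgb. They were taken by the gene name in the array files. All 10 were found, each with 1 probe, among 21806 genes kept for analysis. Total RNA of mouse small intestine was measured on 8 arrays of 1 colour, with 2 arrays in each of 4 groups. The groups were FGF1/CPP-C with 8 Gy, FGF1 with 8 Gy, saline with 8 Gy and saline with 0 Gy. All mice were female BALB/cA Jcl, aged 8 weeks. The design text calls the segment jejunum, and the labels say small intestine. FGF1 is a fibroblast growth factor, and FGF1/CPP-C is a chimera built on it. The proteins or saline were injected into the peritoneum, and 12 h of pretreatment came before irradiation with carbon ions, heavy particles used to treat tumours. Tissue was taken 4 h after irradiation. No label tells whether 2 arrays with the same treatment are 2 mice, so the p-values below cover array-to-array spread that could be purely technical.

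Enteroendocrine cells are scattered hormone-producing cells of the gut epithelium. They sense the contents of the lumen and release peptides from dense-core granules into blood and onto nerves. Which hormones they make depends on the segment: in mice, cells with Cck, Gip, secretin and ghrelin are known best from the upper small intestine, and cells with Gcg, Pyy and neurotensin become more frequent towards the ileum and colon. Somatostatin and ghrelin are also made in the stomach, and Gcg and Sst in pancreatic islets. Chromogranins A and B help to form the granules and are shared by many of these cells. In RNA of whole tissue, fewer cells of a type and less RNA per cell cannot be told apart.

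The stretches upstream of 8 members are shown first: the 6 with an unadjusted p under 0.05 between FGF1/CPP-C and 8 Gy saline, none of which passed after adjustment, and Cck and Sst, which hold a motif also found in Chga or Chgb. They are taken from RefSeq (build GRCm38.p6), which matched all 10 genes, and each gives the 120 bases before the annotated start that lies farthest upstream. Capitals mark the cAMP response element TGACGTCA, its half-site TGACG on either strand, and TATAAA on the coding strand.
Chgb: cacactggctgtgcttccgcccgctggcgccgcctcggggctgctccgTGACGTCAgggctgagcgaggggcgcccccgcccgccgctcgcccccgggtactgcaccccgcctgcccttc
Chga: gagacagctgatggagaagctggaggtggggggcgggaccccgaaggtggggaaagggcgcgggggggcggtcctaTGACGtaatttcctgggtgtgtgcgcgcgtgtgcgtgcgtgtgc
Sst: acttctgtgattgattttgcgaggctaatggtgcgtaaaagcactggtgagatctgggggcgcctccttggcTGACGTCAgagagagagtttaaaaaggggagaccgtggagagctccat
Cck: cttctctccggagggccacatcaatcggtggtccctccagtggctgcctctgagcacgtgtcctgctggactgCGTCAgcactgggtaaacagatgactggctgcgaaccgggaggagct
Gcg: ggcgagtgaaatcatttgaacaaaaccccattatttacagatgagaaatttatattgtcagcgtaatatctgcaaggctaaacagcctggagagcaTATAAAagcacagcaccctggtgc
Nts: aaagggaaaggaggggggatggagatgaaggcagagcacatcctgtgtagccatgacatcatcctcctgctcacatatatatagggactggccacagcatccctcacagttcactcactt
Pyy: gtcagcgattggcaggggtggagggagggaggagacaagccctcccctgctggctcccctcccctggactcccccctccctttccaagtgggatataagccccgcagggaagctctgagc
Ghrl: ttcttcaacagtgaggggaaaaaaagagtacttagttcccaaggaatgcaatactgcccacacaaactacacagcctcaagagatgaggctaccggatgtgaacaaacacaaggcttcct

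On GRCm38.p6 the stretches lie, for Chgb, at chr2:132781522-132781641 (+), Chga at chr12:102554821-102554940 (+), Sst at chr16:23890845-23890964 (-), Cck at chr9:121495695-121495814 (-), Gcg at chr2:62483654-62483773 (-), Nts at chr10:102490419-102490538 (-), Pyy at chr11:102107833-102107952 (-) and Ghrl at chr6:113719912-113720031 (-). Within the 250 bases before the start, TGACGTCA stood in 2 of the 10 members, Chgb and Sst, and in 1.60% of 27025 genes with such a window. The half-site TGACG, which the full element contains on each strand, stood in 5 of 10 (Chga, Chgb, Cck, Nts and Sst) and in 17.8% of all genes; in Nts it lay 166 bases before the start, upstream of the stretch shown. TATAAA on the coding strand stood in Gcg and Sct and in 8.13% of all genes. The E-box CANNTG, the binding motif of the basic helix-loop-helix factors that specify enteroendocrine cells, stood in all 10 members and in 66.1% of all genes. A match says only that the letters are present.

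Levels are given as scaled signals, in intensity units: the processed signal of a probe after every array was brought to the same 75th percentile. Every member was well above background on all 8 arrays, and none had a saturated spot. Levels of different probes are not comparable, so each gene is compared only with itself. Markers of the labelled tissue were present, with 13 of 13 absorptive enterocyte and 8 of 8 goblet cell markers measured. The 75th percentile of the arrays lay between 1735 and 2165 intensity units before scaling. Across genes, which are not independent replicates, the correlation within a pair of arrays was 0.982 to 0.994. Slide 1 carried replicate 1 of each group, and slide 2 carried replicate 2.

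Transcripts of the stomach antrum and of Brunner glands separated the arrays, and this touches every comparison with FGF1/CPP-C. Of 17 such markers 15 were measured, and their median on the normalised log2 scale was -4.59 and -5.64 in the FGF1/CPP-C arrays, 2.24 and -0.44 in the FGF1 arrays, -0.71 and 3.14 in the 8 Gy saline arrays and 2.35 and 0.67 in the 0 Gy saline arrays (replicates 1 and 2). Their summed scaled signal was 6948 to 7198 in the FGF1/CPP-C arrays and 873322 to 2433660 in the other 6. Tff2, a mucin-associated trefoil peptide of mucous glands, had scaled signals of 30.5 and 18.5 in the FGF1/CPP-C arrays, not well above background, and 564332 to 1004270 in the other 6 arrays, saturated in 4 of them. Whether the tissue piece or the pretreatment differed in the FGF1/CPP-C arrays cannot be told apart here.

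**Figure D1:**
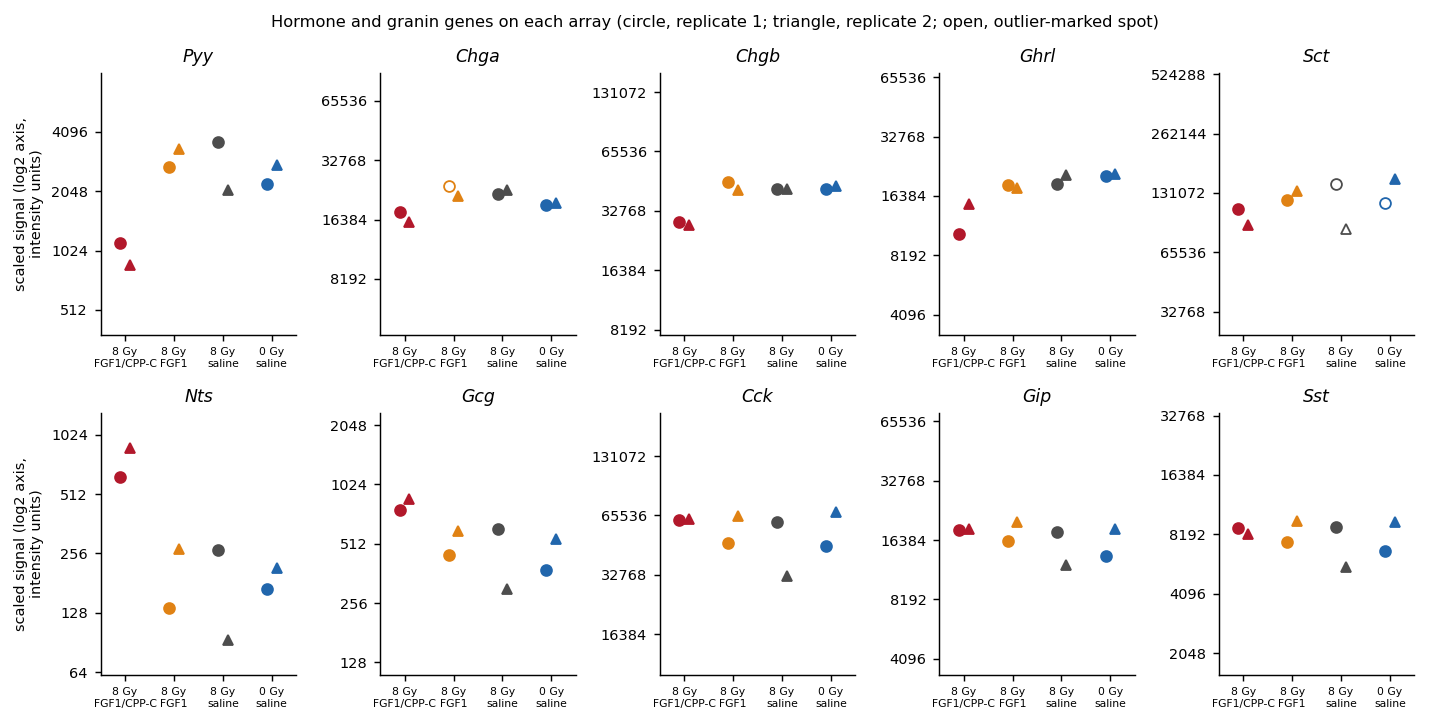
Scaled signal (vertical, log2 axis, intensity units, every panel spanning the same fold range) of the 10 genes on each array, with the 4 groups from left to right; circles are replicate 1, triangles replicate 2, and open symbols are spots marked as outliers by the image software. The 2 FGF1/CPP-C arrays lie below the 6 other arrays for Pyy, Chga, Chgb and Ghrl and above them for Nts and Gcg.

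The first question was how hormone genes in tissue pretreated with FGF1/CPP-C compared with saline and with FGF1 at the same dose. The gut peptides Nts and Gcg were higher in the FGF1/CPP-C arrays, and Pyy, Ghrl, Chga and Chgb were lower, by folds of 1.33 to 4.70 against 8 Gy saline. None of these differences passed the threshold of an adjusted p under 0.05 over all genes. In limma, 0 of 9 members tested against 8 Gy saline passed, where 0.00918% of 21783 genes did, and 6 of 9 had an unadjusted p under 0.05, where 11.9% of all genes did. Of these 2 were higher and 4 lower, where 7.38% and 4.54% of all genes were. Against FGF1, 0 of 10 passed, where 0.00918% of 21797 genes did, and 5 of 10 had an unadjusted p under 0.05, where 9.02% did. Here 1 was higher and 4 lower, where 5.48% and 3.54% of all genes were. In both comparisons the only genes that passed were Tff2 and Gkn3, a gastrokine of the antrum. The 2 comparisons share the FGF1/CPP-C arrays.

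Chgb, chromogranin B, had scaled signals of 28862 and 27883 in the FGF1/CPP-C arrays, 45886 and 41726 in the FGF1 arrays, 42491 and 42429 in the 8 Gy saline arrays, and 42056 and 43579 in the 0 Gy saline arrays. The 2 FGF1/CPP-C arrays lay below all others, and the remaining 6 lay close together. Chgb was lower than in 8 Gy saline with a log2 fold change of -0.58 ± 0.09 (SE; limma adjusted p = 0.190), at -0.56 on slide 1 and -0.61 on slide 2. It was 1.54-fold lower than with FGF1 (-0.63 ± 0.09, limma adjusted p = 0.180). No other member had a smaller adjusted p in either comparison. Chgb had 10 spots per array, of which the 7 to 9 not marked as outliers were used. The coefficient of variation of the used spots was 3.11% to 8.68%, a technical spread within an array only.

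Chga, chromogranin A, had scaled signals of 17932 and 16009 in the FGF1/CPP-C arrays. It had 21482 in FGF1 replicate 2, 21967 and 23083 in the 8 Gy saline arrays, and 19433 and 19963 in the 0 Gy saline arrays. In FGF1 replicate 1 its single spot read 24146 and was marked as an outlier by the image software, so the fit dropped that array. The FGF1/CPP-C arrays were again lowest. The difference from 8 Gy saline was -0.41 ± 0.11 (1.33-fold lower, limma adjusted p = 0.351) and from FGF1 -0.34 ± 0.13 with the marked array dropped (limma adjusted p = 0.542). With the marked spot kept, the difference from FGF1 was -0.43 ± 0.11 (limma adjusted p = 0.360).

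Pyy encodes peptide YY, which slows gut transit and reduces food intake and is released by L cells. Its scaled signals were 1119 and 861 in the FGF1/CPP-C arrays, 2711 and 3343 in the FGF1 arrays, 3616 and 2071 in the 8 Gy saline arrays, and 2220 and 2772 in the 0 Gy saline arrays. Both FGF1/CPP-C arrays lay below the other 6, among which the groups overlapped. Pyy was 2.79-fold lower than in 8 Gy saline (-1.48 ± 0.30, limma adjusted p = 0.261; -1.69 on slide 1 and -1.27 on slide 2) and 3.07-fold lower than with FGF1 (-1.62 ± 0.30, limma adjusted p = 0.239). Of all genes tested against 8 Gy saline, 1.24% lay as low as Pyy or lower. The 95% interval of that difference ran from -2.20 to -0.75 before any adjustment.

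Nts encodes neurotensin, released by N cells after fat is eaten. Its scaled signals were 626 and 880 in the FGF1/CPP-C arrays, 135 and 269 in the FGF1 arrays, 268 and 93.2 in the 8 Gy saline arrays, and 169 and 217 in the 0 Gy saline arrays. The lowest FGF1/CPP-C array was above the highest of the other 6. Nts was 4.70-fold higher than in 8 Gy saline (2.23 ± 0.56, limma adjusted p = 0.321) and 3.89-fold higher than with FGF1 (1.96 ± 0.56, limma adjusted p = 0.406). Only 0.0780% of genes tested against 8 Gy saline lay as high. Its size rested on the 8 Gy saline arrays, at 1.23 on slide 1 and 3.24 on slide 2: it was 2.77-fold without 8 Gy saline replicate 2 and 7.97-fold without replicate 1.

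Gcg encodes proglucagon, which L cells cleave to the incretin GLP-1 and to GLP-2, a growth factor of the mucosa. Its scaled signals were 760 and 863 in the FGF1/CPP-C arrays, 449 and 597 in the FGF1 arrays, 606 and 303 in the 8 Gy saline arrays, and 377 and 539 in the 0 Gy saline arrays. The FGF1/CPP-C arrays were the highest, and the other groups overlapped. Gcg was 1.89-fold higher than in 8 Gy saline (0.92 ± 0.36, limma adjusted p = 0.408), by 0.33 on slide 1 and 1.51 on slide 2. Against FGF1 it was 1.57-fold higher (0.65 ± 0.36, limma adjusted p = 0.684). Without 8 Gy saline replicate 2 it was 1.34-fold higher than the remaining 8 Gy saline array. Pyy and Gcg, both genes of L cells, thus had differences of opposite sign on the same arrays, neither of which passed.

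Ghrl encodes ghrelin, a hormone that stimulates appetite and growth hormone release. Its scaled signals were 10502 and 14904 in the FGF1/CPP-C arrays, 18570 and 18077 in the FGF1 arrays, 18896 and 20841 in the 8 Gy saline arrays, and 20668 and 21248 in the 0 Gy saline arrays. It was lowest in the FGF1/CPP-C arrays, which also differed most between themselves. Ghrl was 1.59-fold lower than in 8 Gy saline (-0.67 ± 0.17, limma adjusted p = 0.329) and 1.46-fold lower than with FGF1 (-0.55 ± 0.17, limma adjusted p = 0.449). Mboat4, the acyltransferase that activates ghrelin, was 1.44-fold higher than in 8 Gy saline (0.52 ± 0.11, limma adjusted p = 0.274), at a level near the floor of the scale.

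**Figure D2:**
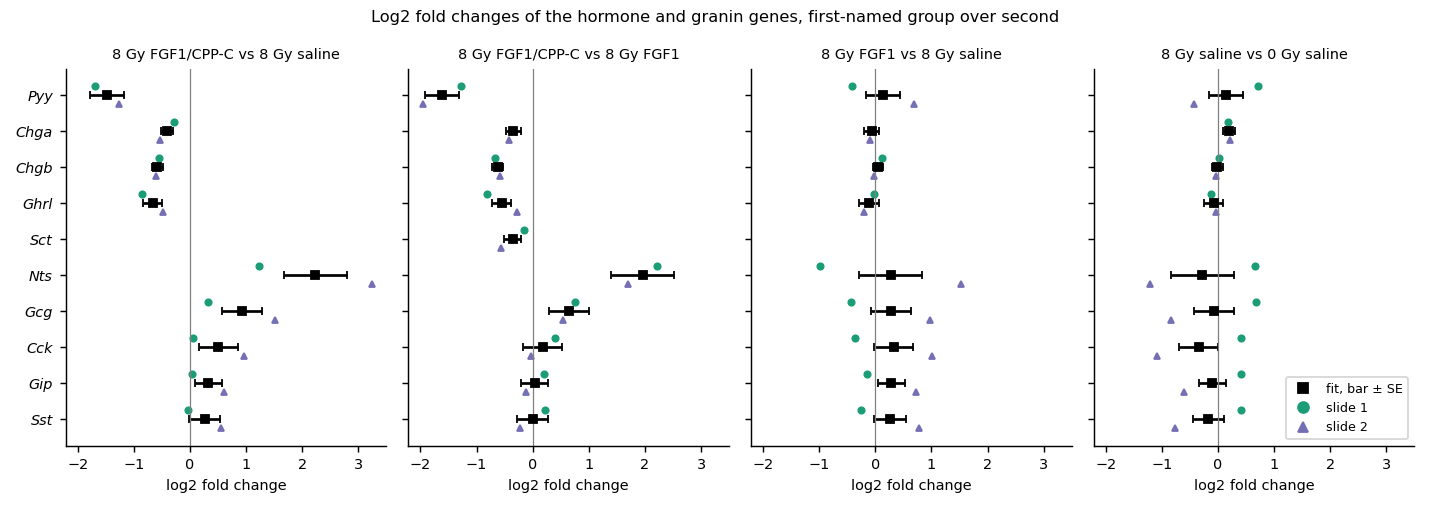
Log2 fold changes of the 10 genes (rows) in 4 comparisons (panels, first-named group over the second); squares with bars are the limma estimate ± SE, circles the difference on slide 1 and triangles that on slide 2. Pyy, Chgb and Ghrl lie left of 0 on both slides in both FGF1/CPP-C panels and Nts and Gcg right of it, whereas in the other 2 panels the 2 slides fall on opposite sides of 0 for Pyy, Nts, Gcg, Cck, Gip and Sst.

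For the hormones of I, K and D cells, the FGF1/CPP-C arrays lay within the range of the other 6. Cck, cholecystokinin, which empties the gallbladder and drives pancreatic secretion, had scaled signals of 62357 and 63053 in the FGF1/CPP-C arrays, 47192 and 64678 in the FGF1 arrays, 60429 and 32204 in the 8 Gy saline arrays, and 45622 and 68546 in the 0 Gy saline arrays. Gip, the incretin of K cells, had 18519 and 18540 in the FGF1/CPP-C arrays, 16153 and 20145 in the FGF1 arrays, 18018 and 12194 in the 8 Gy saline arrays, and 13584 and 18592 in the 0 Gy saline arrays. The array that stood low for both was 8 Gy saline replicate 2. Sst, somatostatin, the D cell peptide that inhibits release of the other hormones, had 8781 and 8215 in the FGF1/CPP-C arrays, 7501 and 9610 in the FGF1 arrays, 8968 and 5592 in the 8 Gy saline arrays, and 6742 and 9510 in the 0 Gy saline arrays. It was lowest in that same array.

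Against 8 Gy saline the differences were 0.51 ± 0.35 for Cck, 0.32 ± 0.24 for Gip and 0.26 ± 0.28 for Sst (limma adjusted p of 0.553, 0.585 and 0.699). On slide 1 they were 0.05, 0.04 and -0.03, and on slide 2, which holds 8 Gy saline replicate 2, they were 0.97, 0.60 and 0.55. Against FGF1 they were 0.18 ± 0.35, 0.04 ± 0.24 and 0.00 ± 0.28. For Sst the 95% interval of the difference from FGF1 ran from -0.68 to 0.68, so moderate changes in either direction were not detectable with 2 arrays per group.

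Sct encodes secretin, which stimulates bicarbonate secretion by the pancreas. Its scaled signals were 108325 and 90271 in the FGF1/CPP-C arrays, 120138 and 133676 in the FGF1 arrays, and 155057 in 0 Gy saline replicate 2. Its single spot was marked as an outlier on 3 arrays, where it read 146209 and 85858 in the 8 Gy saline arrays and 116662 in 0 Gy saline replicate 1. The fit dropped those arrays, so Sct was tested only between FGF1/CPP-C and FGF1, where it was lower without passing (-0.36 ± 0.15, limma adjusted p = 0.597). With the marked spots kept, the difference from 8 Gy saline was -0.18 ± 0.28 (limma adjusted p = 0.805), and the groups overlapped.

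**Figure D3:**
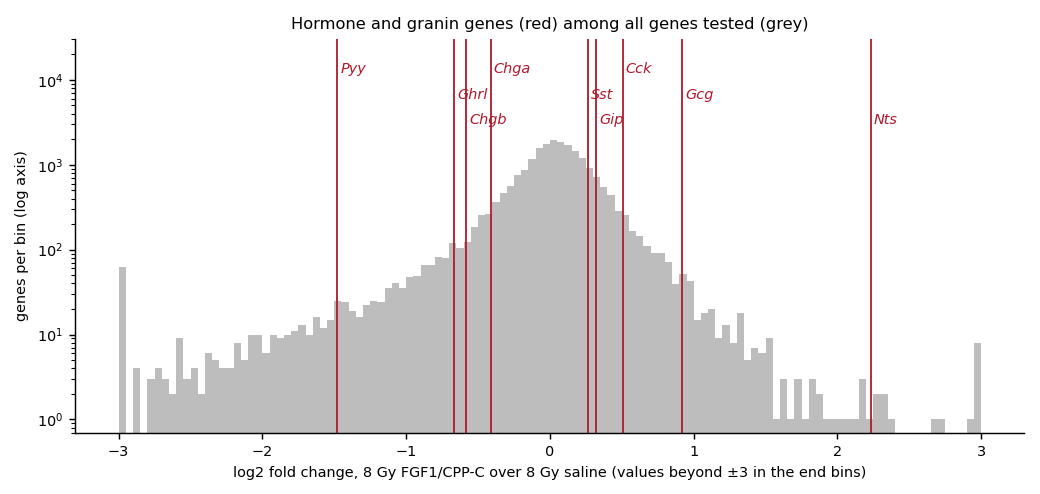
Log2 fold changes of FGF1/CPP-C over 8 Gy saline for all 21783 genes tested (grey, genes per bin on a log axis) with the 9 tested hormone and granin genes as red lines. Nts at 2.23 and Pyy at -1.48 lie in the tails, and Sst and Gip lie in the body of the distribution.

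Against 8 Gy saline, 4 members lay above and 4 below with no overlap between the groups, where 25.2% and 19.2% of all genes did so; Sst overlapped. Against FGF1, 2 lay above and 4 below, where 24.7% and 20.9% did so. Among the 8 members measured on all 8 arrays, 5 had both FGF1/CPP-C arrays outside the range of the other 6: Nts and Gcg above (11.1% of all genes) and Pyy, Chgb and Ghrl below (9.99% of all genes). The median over the members tested was 0.26 against 8 Gy saline and -0.17 against FGF1, beside 0.04 and 0.02 over all genes. Some marker lists also differed in the FGF1/CPP-C arrays, with 0 of their genes passing in limma apart from Tff2 and Gkn3. The median of 8 measured distal intestine markers was -1.80 and -1.71 in the FGF1/CPP-C arrays and -3.02 to -2.06 in the other 6. The ileal genes Fgf15 and Fabp6 lay within the range of the others: Fgf15, an enterokine of bile acid feedback, had scaled signals of 79.9 and 60.9 in the FGF1/CPP-C arrays and 48.6 to 251.3 in the others, and Fabp6, the ileal bile acid-binding protein, had 216 and 181 in the FGF1/CPP-C arrays and 172 to 255 in the others. For 8 measured proximal markers the median was 3.72 and 3.78 in the FGF1/CPP-C arrays and 2.96 to 4.68 in the others. The 2.96 is that of 8 Gy saline replicate 1, where Onecut2 had no value, so it covers fewer markers. The next lowest of the others was 4.21, above both FGF1/CPP-C arrays. The summed scaled signal of the proximal markers did not follow this order. It was 1054230 and 995141 in the FGF1/CPP-C arrays and 759391 to 1009280 in the others, again without Onecut2 in 8 Gy saline replicate 1. Against 8 Gy saline, 4 of the 8 proximal markers were positive, with a median of -0.04 beside 0.04 over all genes. The absorptive enterocyte median was 6.93 and 6.86 in the FGF1/CPP-C arrays and 6.02 to 6.61 in the others. The median of 5 measured Paneth cell markers was 3.58 and 3.63 in the FGF1/CPP-C arrays and 2.56 to 3.22 in the others. That of 12 enteric neuron markers, cells that also make granins, was -2.72 and -2.82 in the FGF1/CPP-C arrays and -2.71 to -2.35 in the others. Against 8 Gy saline 1 of the 12 was positive, with a median difference of -0.27 beside 0.04 over all genes. Goblet, tuft cell and enteric glia medians overlapped the other arrays. Their part in the hormone differences was not tested.

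Carbon ions alone left no detectable change in these genes. Of the 9 members tested between 8 Gy saline and 0 Gy saline, 0 passed in limma, where 0.423% of 21774 genes did, and 0 had an unadjusted p under 0.05, where 12.3% did. The differences ran from -0.34 ± 0.35 for Cck to 0.19 ± 0.11 for Chga, with limma adjusted p of 0.554 or more. Chga was the only member whose arrays did not overlap between the groups, which 38.4% of all genes did not. For Chgb, the most precisely measured, the 95% interval was -0.24 to 0.21, and for Nts it was -1.64 to 1.09. The median over the members was 0.41 on slide 1 and -0.61 on slide 2.

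FGF1 without the CPP-C part also left no detectable difference. Between FGF1 and 8 Gy saline 0 of 9 members passed in limma, where 0% of 21784 genes did, and 0 had an unadjusted p under 0.05, where 1.75% did. The differences ran from -0.12 ± 0.17 for Ghrl to 0.32 ± 0.35 for Cck. Their median was 0.26, at -0.31 on slide 1 and 0.72 on slide 2, so the 2 slides differed in sign. Among the members with a value on each of these arrays, only Ghrl, lower with FGF1, did not overlap between the groups. Of all genes, 18.9% did not. This comparison shares its 8 Gy saline arrays with those of carbon ions alone and of FGF1/CPP-C against saline.

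All 6 irradiated arrays together gave 0 of 9 members passing against 0 Gy saline in limma, where 2.4% of 21771 genes passed. Chgb alone had an unadjusted p under 0.05, where 20.6% of all genes did. It was -0.19 ± 0.08 (limma adjusted p = 0.230), with the FGF1 and 8 Gy saline arrays overlapping the 0 Gy saline arrays.

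The same 3 arrays were lowest for 5 hormone genes. Cck, Gip, Sst, Gcg and Nts each had their 3 lowest values in FGF1 replicate 1, in the second 8 Gy saline array and in the first 0 Gy saline array, the 3 arrays with the highest antrum markers. The order within the 3 and the highest array differed between these genes. This held for 5 of the 8 members measured on all arrays and for 8.38% of all genes. It did not hold for Pyy, Chgb or Ghrl, whose lowest values were those of the FGF1/CPP-C arrays. The profiles of Gip and Sst over the 8 arrays were the closest pair of members, with a root mean square distance of 0.06 log2 units after each was centred on its mean. Cck and Sst followed at 0.12 and Cck and Gip at 0.14. These 3 arrays were singled out from the data and are not a group of the study.

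**Figure D4:**
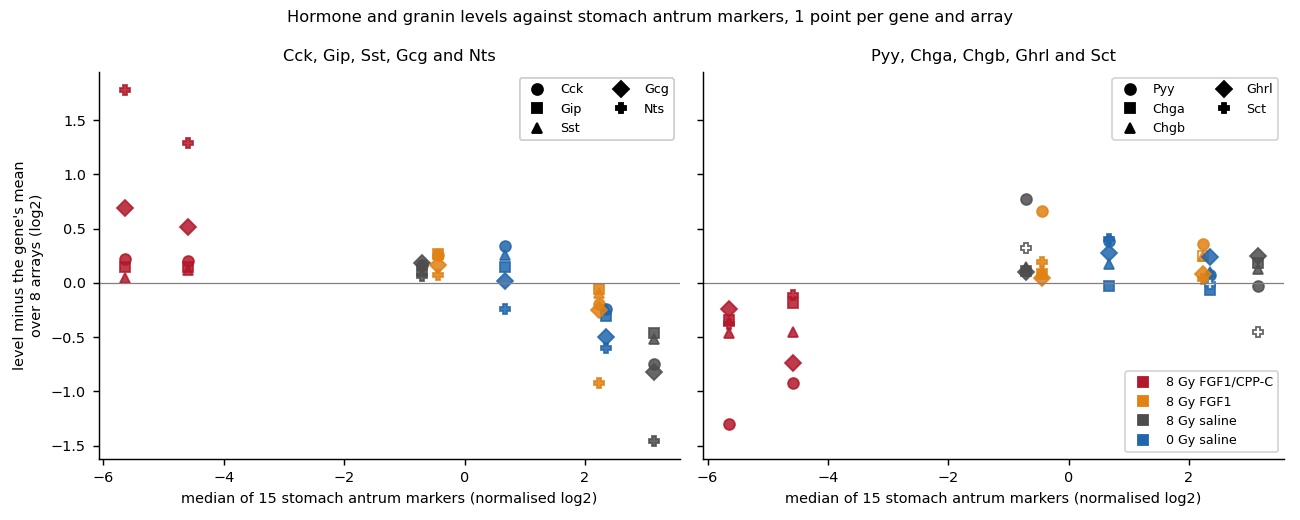
Level of each gene minus its mean over the 8 arrays (vertical, log2) against the median of 15 stomach antrum markers on the same array (horizontal, normalised log2), coloured by group, with open symbols for outlier-marked spots. In the left panel Cck, Gip, Sst, Gcg and Nts are lowest in the 3 arrays with medians of 2.24 to 3.14; in the right panel the FGF1/CPP-C arrays at the far left are the low ones for Pyy, Chgb, Chga and Ghrl.

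With those 3 arrays left out, the log2 fold change of FGF1/CPP-C over the remaining 8 Gy saline array was -1.88 for Pyy, -0.58 for Chgb, 1.47 for Nts and 0.42 for Gcg. No member passed in that fit, where 8 Gy saline, FGF1 and 0 Gy saline had 1 array each and the lone arrays are assumed to vary like the FGF1/CPP-C arrays. Cells of other organs that make the same peptides were also looked for. Of 12 pancreatic islet markers 9 were measured, with a median of -2.87 to -2.29 over all arrays, and Ppy, G6pc2 and Slc30a8 were not above background on any. Ins1 read 59.2 and 45.1 in the FGF1/CPP-C arrays and 43.7 to 85.5 in the others except 0 Gy saline replicate 1, where it read 319.6. The pancreatic acinar median was also highest there, at 5.29, and second highest in 8 Gy saline replicate 2, at 2.82. On the remaining arrays it lay between -4.80 and -1.61. Of 7 markers of gastric parietal and chief cells, 5 were not above background.

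Genes that make, package and receive these hormones were examined in 5 lists. Of 22 genes for hormone processing and secretory granules, 21 were tested, and 1 rose and 0 fell in the irradiated arrays together against 0 Gy saline, where 1.33% of all genes rose. That gene was Vgf, which encodes a granin-like precursor of neuroendocrine peptides. Its scaled signals were 293 and 287 in the FGF1/CPP-C arrays, 413 and 413 in the FGF1 arrays, 431 and 333 in the 8 Gy saline arrays, and 183 and 208 in the 0 Gy saline arrays. All 6 irradiated arrays lay above both 0 Gy saline arrays, as they did for 10.5% of all genes. Vgf was 1.83-fold higher (0.87 ± 0.12, limma adjusted p = 0.0306), by 1.03 on slide 1 and 0.71 on slide 2. It passed under 8 of the 18 alternatives that gave a value and not under the other 10, with adjusted p of 0.0219 to 0.279 and estimates of 0.65 to 0.97 over the 18. The call was lost with the replicate block (limma adjusted p = 0.0548), with the series matrix values (0.0599) and with no filter on dim probes (0.0616). It was also lost without any one of the FGF1/CPP-C, FGF1 or 0 Gy saline arrays, and without the 3 arrays with high antrum markers.

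**Figure D5:**
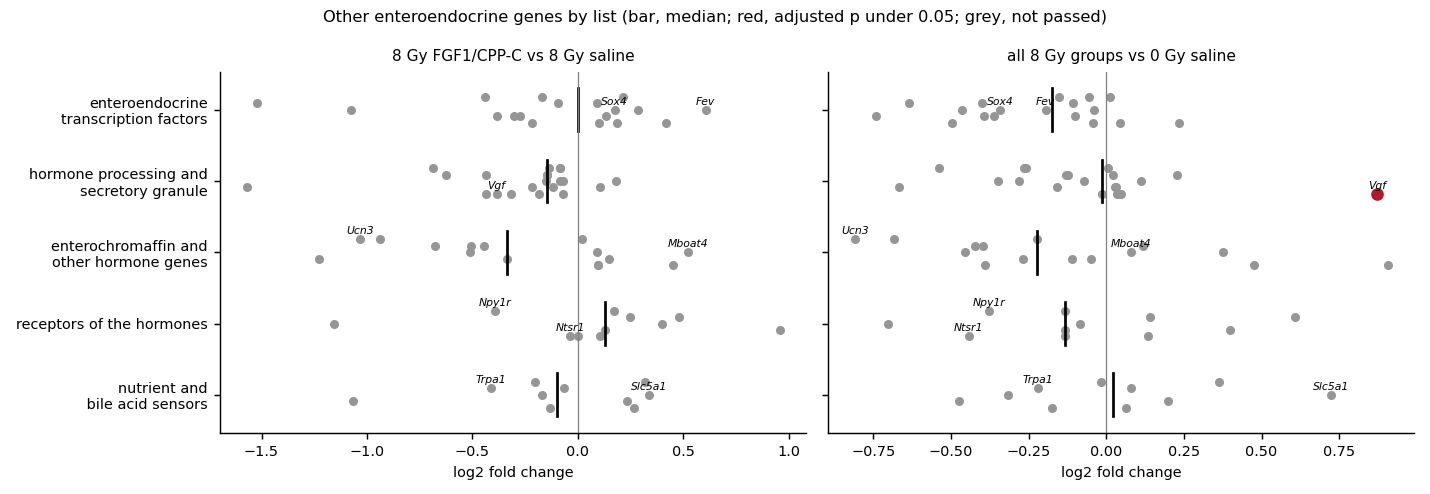
Log2 fold changes (horizontal) of single genes (points) in 5 lists of enteroendocrine genes, for FGF1/CPP-C over 8 Gy saline (left) and for all irradiated arrays over 0 Gy saline (right); vertical bars are list medians and red marks an adjusted p under 0.05. Vgf at 0.87 in the right panel is the only red point.

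In the other comparisons 0 of the 21 granule genes passed. Their median against 8 Gy saline was -0.15 with FGF1/CPP-C, and 2 of 21 genes had a positive difference, beside a median of 0.04 over all genes. Of 22 transcription factors of the enteroendocrine lineage 18 were tested, and 0 passed in any of the 5 comparisons. In 8 Gy saline against 0 Gy saline their median was -0.19, beside -0.05 over all genes. There 5 were lower and 0 higher at an unadjusted limma p under 0.05, where 7.47% and 4.87% of all genes were. In the pooled irradiated arrays 6 were lower and 0 higher, where 11.3% and 9.31% of all genes were. Fev, a factor of serotonin-producing cells, had scaled signals of 206 and 217 in the FGF1/CPP-C arrays, 175 and 166 in the FGF1 arrays, 150 and 128 in the 8 Gy saline arrays, and 206 and 186 in the 0 Gy saline arrays. It was lowest in both 8 Gy saline arrays, at -0.50 ± 0.12 against 0 Gy saline (limma adjusted p = 0.192), and FGF1/CPP-C was 0.61 ± 0.12 above 8 Gy saline (limma adjusted p = 0.240). Sox4, a factor of endocrine progenitors, was at -0.42 ± 0.09 in 8 Gy saline against 0 Gy saline (limma adjusted p = 0.173).

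Of 18 enterochromaffin and other hormone genes 15 were tested, and 0 passed. For the pooled irradiated arrays that count rose above 0 under 3 alternatives of the processing. Ucn3, urocortin 3, a peptide of the corticotropin-releasing factor family, had 97.0 and 71.1 in the FGF1/CPP-C arrays, 195 and 145 in the FGF1 arrays, 155 and 187 in the 8 Gy saline arrays, and 239 and 229 in the 0 Gy saline arrays. It was lowest in the FGF1/CPP-C arrays, 2.05-fold below 8 Gy saline (-1.03 ± 0.21, limma adjusted p = 0.273). Of 18 hormone receptors 11 were tested, and of 15 nutrient and bile acid sensors 10 were tested, with 0 passing in either list. For the sensors the count in the pooled irradiated arrays rose above 0 under 1 alternative. Ntsr1, a neurotensin receptor, differed by -0.04 ± 0.12 between FGF1/CPP-C and 8 Gy saline, and Npy1r, a receptor for the peptide YY family, by -0.39 ± 0.13 (limma adjusted p = 0.368). Trpa1, an irritant-gated channel of enterochromaffin cells, differed by -0.41 ± 0.10 (limma adjusted p = 0.325), and Slc5a1, the sodium-glucose cotransporter, by 0.34 ± 0.24.

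Genes other than the members were ranked by the distance of their centred profile over the 8 arrays from that of each member. Bcl2l15, a BCL2 family gene, and Hoxc6, a homeobox gene, were nearest to Nts, at root mean square distances of 0.29 and 0.32 log2 units where Nts itself varied by 1.02 around its mean. Dpp4, a peptidase of the brush border, was nearest to Gcg at 0.09, and Dpep1, a dipeptidase, followed at 0.11. Mogat1, an acyltransferase, and Ctps2, a CTP synthase, were at 0.23 from Pyy. Adgrg6, an adhesion receptor, was at 0.06 from Chgb, and Fxyd1, a regulator of the sodium pump, at 0.09 from Ghrl. Chp2 was at 0.06 from Sst. These are descriptions over 8 arrays that share slides and differ in their stomach antrum and pancreatic acinar markers.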

How the data were processed

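Trizol and RNeasy were used for the RNA and Cy3 for the label, per the labels' protocols. Images were quantified by Agilent Feature Extraction 9.5.3.1, and probe coordinates follow mm9, per the file headers. The deposited processed signal is a linear, background-subtracted intensity with no scaling from array to array. The value table of the series matrix holds the same intensities where it has a value. Between 375 and 878 spots well above background on an array had no value there. The sources used here state no normalisation across arrays by the authors.

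The log2 of the processed signal minus that of the array's 75th percentile was used, with a floor of -6.74 chosen after negative signals had been seen. Scaled signals are the same values brought back to intensity units at the geometric mean of the percentiles, 1981. Control spots and outlier-marked spots were left out and saturated spots kept. Spots of a probe were averaged, a probe was kept where some group had it well above background on each array, and a gene with several probes took the brightest. This left 27469 of 39429 probes and 21806 genes. Names came from RefSeq for 28330 probes by accession and 2204 by symbol, while 8895 kept the design's own name. The Gip probe has no position in the files.

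The comparisons used limma 3.58.1 (R 4.3.3, package data.table at version 1.17.8), fitting 4 group means to all 8 arrays, with Benjamini-Hochberg adjustment over all genes and a threshold of 0.05. An exact permutation test of 2 against 2 arrays cannot go below p = 0.333. The code was tested on simulated data. Figures used matplotlib 3.10.9 in Python 3.11.15. Alternatives were other normalisations, background correction, the series matrix, filters, probe rules, fits and left-out arrays.

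The members, gene lists and marker lists were chosen with earlier results of these data known. All members were named, with the passing genes of each list or otherwise the 2 of smallest p, and the nearest profiles with an established symbol. Not every gene so chosen is described.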

Additional observations from a re-analysis of the deposited data

How the results depend on the processing

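Under 19 alternatives, 0 members passed in any comparison that could be fitted, as in the results above, and the smallest limma adjusted p of any member was 0.0804, for Nts in FGF1/CPP-C against 8 Gy saline without 8 Gy saline replicate 1. In that comparison Pyy, Chga, Chgb and Ghrl kept a negative and Nts, Gcg, Cck and Gip a positive difference under all 19, with Pyy between -1.88 and -1.08, Chgb between -0.68 and -0.56 and Nts between 1.47 and 2.99. The median over the members moved once by more than its spread: in FGF1/CPP-C against FGF1 it was -0.17 with all arrays and between -0.26 and 0.18 when single arrays were left out, the highest without FGF1 replicate 2, a fit that also lacks Chga. The number of genes passing among all genes was less stable. It was 0 to 7 in FGF1/CPP-C against 8 Gy saline, 0 to 13 against FGF1, where 2 passed in each above, and 0 to 760 for all irradiated arrays against 0 Gy saline, where 522 passed. The 522 split into 290 higher and 232 lower, and the 542 passing under quantile normalisation into 364 higher and 178 lower. It was 0 to 2 for FGF1 against 8 Gy saline, where 0 passed. For 8 Gy saline against 0 Gy saline it was 92, with at most 143 under any alternative, 37 under the replicate block and 0 in a fit to these 2 groups alone or without the 3 arrays with the highest antrum markers; with a single array left out it was 0 without either 0 Gy saline array, 41 and 16 without 8 Gy saline replicate 1 or 2, 10 without either FGF1 array and 18 without either FGF1/CPP-C array. For the pooled irradiated arrays it was 24 and 0 without 0 Gy saline replicate 1 or 2 and 86 to 109 without any one FGF1 or FGF1/CPP-C array. Fitting only the groups compared gave no value for the pooled irradiated arrays. The deviations of same-numbered arrays correlated positively in 4 of 6 pairs of groups and negatively in 2 (-0.52 to 0.54), so the replicate number was not taken to pair the arrays beyond the slide they share. With the replicate block, 0 members passed, and the smallest limma adjusted p of a member was 0.282. Of 9 members tested against 8 Gy saline, 5 had an unadjusted p under 0.05 in limma, where 2562 of 21783 genes did. Against FGF1 it was 4 of 10, where 1943 of 21797 genes did. Outlier-marked spots were kept in 1 alternative chosen after the data had been seen. With 2 arrays a group every interval is wide, and single-spot probes (7 of the 10 members) have no check within an array.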
